A study of Mus musculus with 10 samples.

Results

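G protein-coupled receptors were followed in tuft cells and in non-tuft epithelial cells of the mouse pancreas during caerulein-induced pancreatitis. Receptor genes were taken by name, as every listed gene whose symbol begins with Gpr and a number, Gprc, Ffar, Sucnr1, P2ry, Ptger, Adora, Chrm, Cckar, Sctr, Lpar, S1pr, Ccr, Cxcr, F2r, Adr, Ednr, Ntsr, Vipr or Cysltr. This rule used no measured value and gave 48 of the 12160 listed genes. An annotation of the mouse genome (NCBIM37) holds 177 protein-coding genes with such names, and 47 of the 48 were among them. The remaining one, Gpr137b-ps, is annotated as a long noncoding RNA gene. Among the 48 are 8 genes with a Gpr symbol whose products are not established as G protein-coupled receptors. They are counted as receptor genes throughout. No muscarinic (Chrm), endothelin (Ednr), neurotensin (Ntsr) or cysteinyl leukotriene (Cysltr) receptor was listed. The authors had removed genes of low variance across the libraries, so a gene that is not listed is not shown to be absent.

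All mice were wild type, male and treated with caerulein, a peptide that acts at cholecystokinin receptors, injures acinar cells and was the agent common to both groups. Caerulein was given in repeated cycles. The authors state the recovery before cell isolation as a range of days, without the time for each library. The strain is recorded once as Mixed and once as CD1, and the age was not given in the labels. Tuft cells were sorted as Cd45-neg; EpCAM+; Siglec f+ cells and non-tuft epithelial cells as Cd45-neg; EpCAM+; Siglec f-neg cells, with 100 cells in each of 5 libraries per group, and each tuft library came from a different mouse. Cells of both groups were sorted from 5 mice, without a statement of which tuft and non-tuft libraries shared a mouse. Libraries were made by Smart-Seq2, which amplifies full-length cDNA from few cells, and no group of uninjured pancreas entered the comparison, so injury itself was not compared.

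G protein-coupled receptors cross the plasma membrane with a bundle of helices and pass an outside signal, such as a hormone, a lipid, a metabolite or a chemokine, to a heterotrimeric G protein inside the cell. The G protein alpha subunit and the beta-gamma pair then act on enzymes such as adenylyl cyclase and phospholipase C, while regulators of G protein signaling (RGS), receptor kinases and arrestins end the signal. In the pancreas, cholecystokinin and secretin receptors drive the secretion of enzymes and bicarbonate, and tuft cells of other organs use such receptors to sense metabolites and tastants.

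Levels are given as log2(RPKM + 1) after quantile normalization, as deposited, where RPKM is the number of reads scaled by the length of the transcript and the size of the library. The floor of a library is its lowest value, at which undetected genes are listed. It was 0.17 for non-tuft library 2 and 0 for the other 9 libraries. Differences are tuft minus non-tuft on that log2 scale, and since 1 was added before the log, they understate the changes of low genes. A gene was called higher or lower when limma gave an adjusted p under 0.05 over all 12160 genes and the fold exceeded 4. Without read counts the sequencing depth is unknown, and a gene listed at 0 is not shown to be absent. In such bulk samples, fewer cells of a type and less RNA per cell cannot be told apart.

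Libraries differed in composition. The mean of 19 listed tuft cell markers lay between 6.56 and 7.01 in the tuft libraries. It was 0.27 and 0.12 in non-tuft libraries 3 and 4, but 2.25, 3.33 and 3.66 in non-tuft libraries 1, 2 and 5. Acinar markers were present in every tuft library, with means over 23 genes of 4.21 to 8.55 against 10.4 to 11.4 in the non-tuft libraries. Means of 14 endothelial and fibroblast markers were 4.23 in non-tuft library 5 and 3.51 in tuft library 5 and at most 1.38 elsewhere. Non-tuft library 5 also had the highest mean of 16 leukocyte markers, at 2.49. These 16 were the listed genes of 36 leukocyte markers, and the 14 those of 22 endothelial and fibroblast markers. The markers that were not listed did not enter the means.

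Receptor genes were mostly low. The median of their mean levels over all libraries was 0.90, against 2.48 over all listed genes. Of the 48 genes, 9 (18.8%) were above the floor in all 10 libraries, compared with 50.2% of all listed genes. Of these 9, 5 were among the 8 not established as receptors. All 5 tuft libraries were at the floor for 10 receptor genes and all 5 non-tuft libraries for 4, and 7 genes were above the floor in 1 library only. As genes of low variance had been removed, a gene at the floor throughout a group was listed only through its values in the other. These counts therefore depend on that removal. A mean level of at least 2 was reached by 14 genes in tuft cells and by 12 in non-tuft epithelial cells, and 9 genes reached it in both. Between 17 and 35 receptor genes were above the floor in each non-tuft library and between 22 and 32 in each tuft library.

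**Figure D1:**
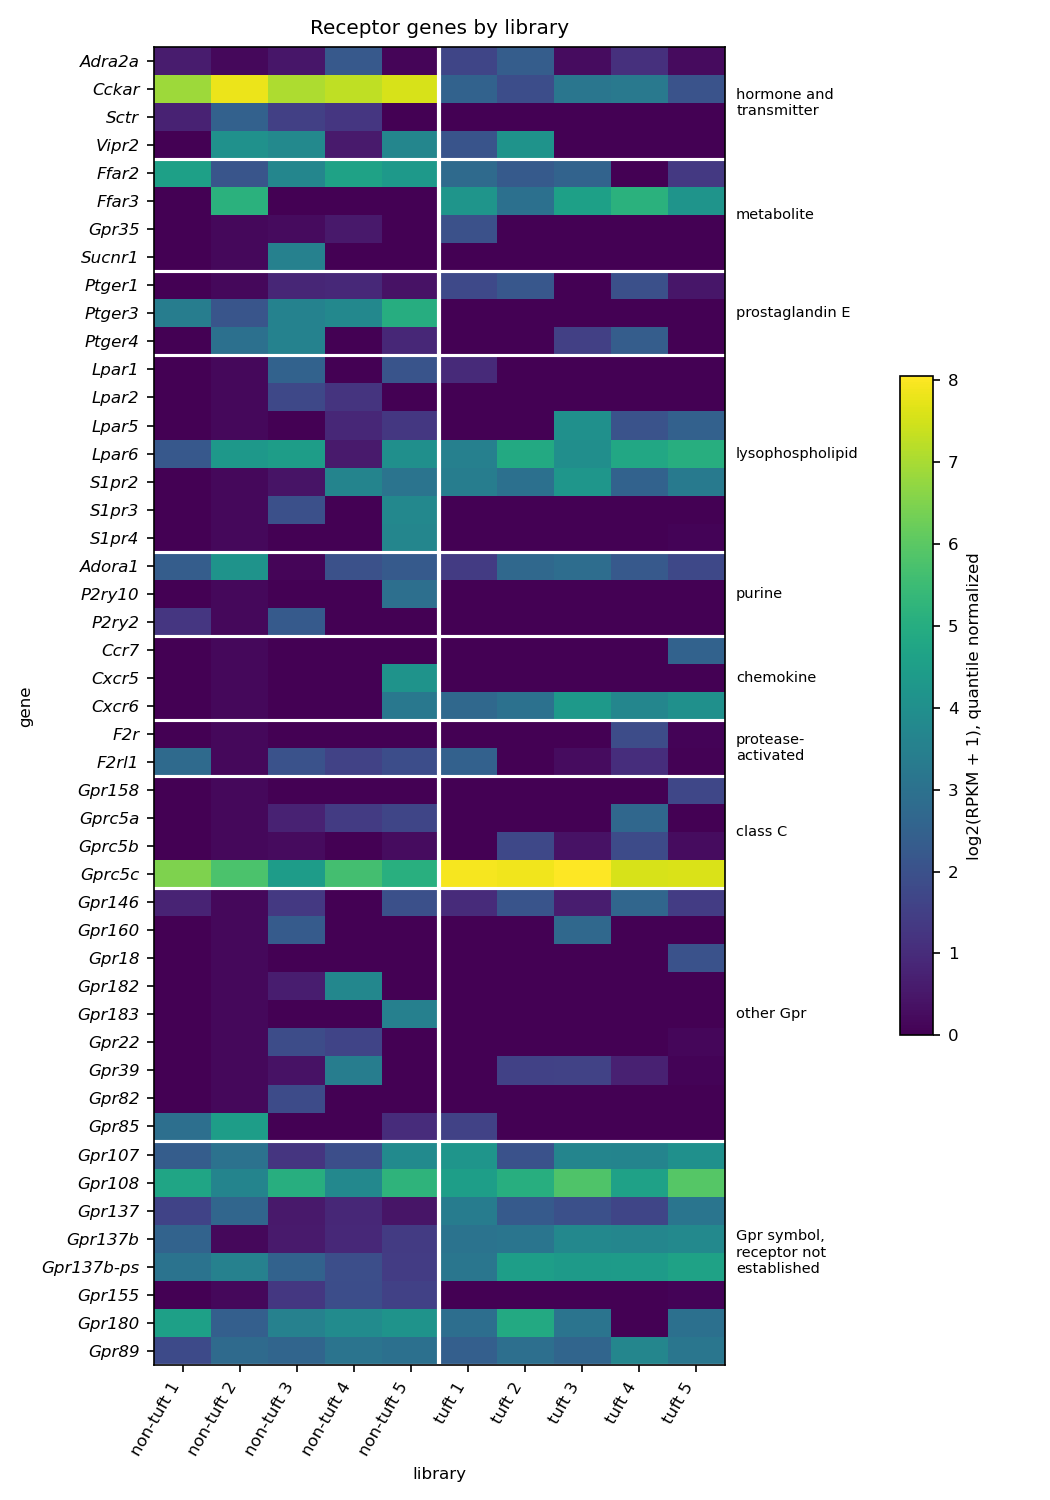
Level of 47 of the 48 receptor genes, grouped by role, in each of the 10 libraries, with log2(RPKM + 1) after quantile normalization as the color from 0 to 8. Cckar is bright in the non-tuft libraries and Gprc5c in the tuft libraries, while most other cells of the map lie near 0.

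Of the 48 receptor genes, 7 (14.6%) were called, against 8.31% of all listed genes. Higher in tuft cells were 4 of them, Ffar3, Cxcr6, Gprc5c and Gpr137b (all genes, 4.32%), and lower were 3, Cckar, Ptger3 and Ffar2 (all genes, 3.99%). Gpr137b is among the 8 genes not established as receptors. Gpr137b-ps also had an adjusted p under 0.05 in limma without reaching the fold, which made 8 genes with such a p (all genes, 11.7%). The groups did not overlap for 4 genes, Cckar, Ptger3, Gprc5c and Gpr137b, which is 8.33% of the receptor genes and 11.4% of all genes. The median difference of the receptor genes was 0.01, and that of all genes 0.02. At an unadjusted p under 0.05, 12 receptor genes differed in limma (all genes, 25.1%).

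**Figure D2:**
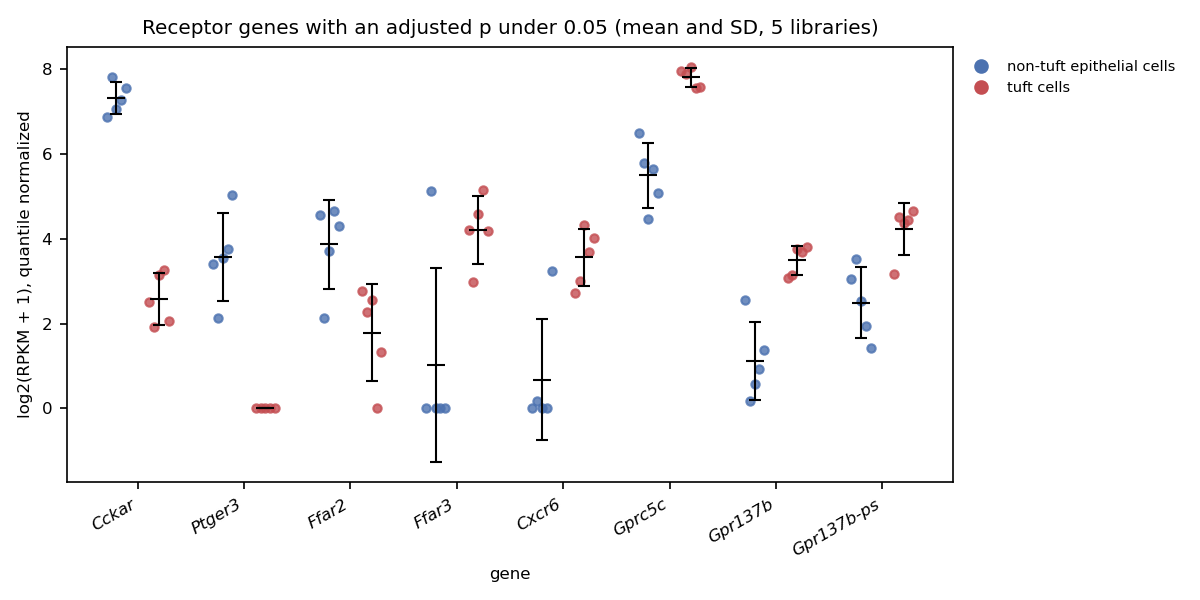
Level in log2(RPKM + 1) of the 8 receptor genes with an adjusted p under 0.05, 1 point per library, with the mean and SD of 5 libraries as bars, non-tuft epithelial cells in blue and tuft cells in red. Cckar and Ptger3 lie lower and Gprc5c and Gpr137b higher in tuft cells without overlap of the groups, while single non-tuft libraries of Ffar3 and Cxcr6 lie among the tuft libraries.

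**Figure D3:**
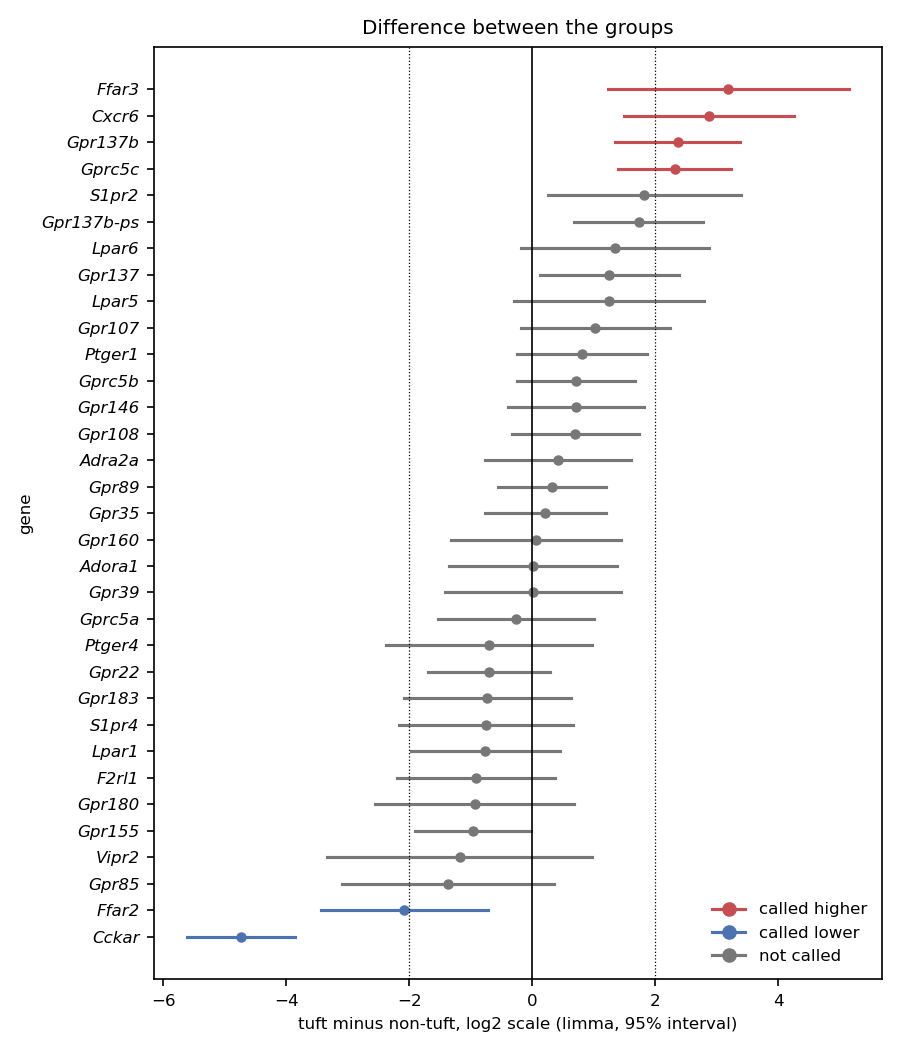
Difference between the groups on the log2 scale with its 95% interval from limma, for 33 receptor genes for which neither group was entirely at the floor, and with dotted lines at a fold of 4. Cckar has the lowest and Ffar3 the highest difference, and the interval of Ffar3 is among the widest.

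Hormone and transmitter receptors were led by Cckar, the receptor for cholecystokinin through which caerulein acts and which acinar cells use to control enzyme release. Cckar (chromosome 5, 54089015 to 54098943, minus strand, NCBIM37) was at 6.87, 7.81, 7.05, 7.28 and 7.55 in non-tuft libraries 1 to 5 and at 2.52, 1.91, 3.15, 3.26 and 2.06 in tuft libraries 1 to 5. Every tuft library was thus far below every non-tuft library, yet none was at the floor. The mean was 2.58 ± 0.61 (SD, n = 5) in tuft cells and 7.31 ± 0.38 (SD, n = 5) in non-tuft epithelial cells, a difference of -4.73 (standard error 0.41, 95% interval -5.61 to -3.85, limma adjusted p = 1.46e-05) or a 26.6-fold lower value on this scale. By mean level, Cckar ranked 333 among the 12160 listed genes in non-tuft epithelial cells and 5965 in tuft cells. The acinar marker list moved in the same direction, with 18 of its 23 listed genes called lower in tuft cells. The part of acinar RNA in the tuft level of Cckar was not tested.

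The other 4 genes of this group were not called. Sctr, which encodes the secretin receptor of duct cells, was at 0.78, 2.51, 1.52 and 1.26 in non-tuft libraries 1 to 4, and at 0 in the fifth and in all 5 tuft libraries. The groups therefore met at the floor, and the adjusted p was 0.111 (limma). Ductal markers were lower in tuft cells for 3 of 14 listed genes, with library means of 4.19 to 4.90 against 4.95 to 7.02, and their part in the Sctr values was not tested. Vipr2, a receptor for vasoactive intestinal peptide that was chosen after its values were seen, was at 4.07, 3.80 and 3.69 in non-tuft libraries 2, 3 and 5 and at 4.13 in tuft library 2, so that its high libraries fell in both groups. Adra2a, an inhibitory adrenergic receptor, had group means of 1.14 in tuft cells and 0.72 in non-tuft epithelial cells.

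Among receptors for metabolites, the pair of receptors for short-chain fatty acids, which bacteria release from dietary fiber, had differences of opposite sign. Ffar2 (minus strand, 31603376 to 31608794) and Ffar3 (minus strand, 31639349 to 31641197) are neighbors on chromosome 7 in NCBIM37, with 30554 bases between them. The 250 bases upstream of their RefSeq start sites are shown because these 2 neighboring genes were called in opposite directions, and those of Cxcr6 and Ptger3 because they were the other called genes with a RefSeq promoter entry. Sequences run 5′ to 3′ on the strand of the gene, and capitals mark the match of a searched motif. They were taken from the RefSeq table for GRCm38.p6 and each matched NCBIM37 exactly once, at chr7:31608795-31609044 (minus) for Ffar2, chr7:31641198-31641447 (minus) for Ffar3, chr9:123715345-123715594 (plus) for Cxcr6 and chr3:157229590-157229839 (plus) for Ptger3. For Ffar2 the most upstream of 4 starts was used.
Ffar2: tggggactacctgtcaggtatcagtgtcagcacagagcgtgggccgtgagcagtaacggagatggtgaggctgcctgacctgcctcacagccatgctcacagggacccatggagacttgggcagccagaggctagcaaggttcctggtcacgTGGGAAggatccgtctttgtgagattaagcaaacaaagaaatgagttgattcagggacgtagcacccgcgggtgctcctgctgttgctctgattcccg
Ffar3: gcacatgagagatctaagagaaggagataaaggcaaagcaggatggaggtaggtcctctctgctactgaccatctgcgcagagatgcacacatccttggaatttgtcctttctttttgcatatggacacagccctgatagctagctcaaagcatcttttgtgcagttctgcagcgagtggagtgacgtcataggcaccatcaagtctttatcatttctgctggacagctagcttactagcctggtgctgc
Cxcr6: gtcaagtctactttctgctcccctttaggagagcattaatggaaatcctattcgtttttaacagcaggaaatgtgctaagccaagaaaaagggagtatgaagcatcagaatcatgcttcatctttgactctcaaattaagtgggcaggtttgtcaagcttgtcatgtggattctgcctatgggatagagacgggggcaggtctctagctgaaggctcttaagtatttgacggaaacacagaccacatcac
Ptger3: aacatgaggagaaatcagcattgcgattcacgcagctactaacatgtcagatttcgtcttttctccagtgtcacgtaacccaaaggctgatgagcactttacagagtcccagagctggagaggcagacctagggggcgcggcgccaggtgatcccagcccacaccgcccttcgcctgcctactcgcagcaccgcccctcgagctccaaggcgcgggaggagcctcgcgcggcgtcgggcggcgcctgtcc

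These sequences differ in base composition, with a GC content of 56.8% in Ffar2, 48.0% in Ffar3, 43.6% in Cxcr6 and 62.0% in Ptger3. Searched on both strands were ATGCAAAT, the octamer recognized by POU factors, TGGGAA, the core recognized by Rbpj, CAGCTG, an E-box, and TATAAA, the TATA box. They are present in 1.60%, 21.6%, 13% and 12.4% of 32851 RefSeq mouse promoters of the same length. The only match was 1 TGGGAA in Ffar2, 98 bases upstream of the start, and no match says only that these letters are not in these windows.

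Ffar3, which signals through inhibitory G proteins, was at 4.19, 2.97, 4.58, 5.15 and 4.17 in the tuft libraries. Non-tuft library 2 was at 5.13, whereas the other 4 of that group were at 0. Every tuft library was thus above the floor, and 1 non-tuft library reached the level of the highest tuft library. The difference was 3.19 (standard error 0.91, limma adjusted p = 0.0370). Without non-tuft library 2 it was 4.21 (adjusted p = 0.000208), and with each other library left out the call was kept only without tuft library 2, the adjusted p otherwise lying between 0.0759 and 0.0973. Tuft markers were at 3.33 in non-tuft library 2, but also at 2.25 and 3.66 in non-tuft libraries 1 and 5, in which Ffar3 was at 0. Their part in the Ffar3 value of non-tuft library 2 was not tested. With the replicate number added to the fit as a block, the Ffar3 call was lost (limma adjusted p = 0.0816).

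Ffar2, the other receptor of the pair, was at 4.56, 2.12, 3.70, 4.64 and 4.31 in the non-tuft libraries and at 2.78, 2.28, 2.56, 0 and 1.33 in the tuft libraries. Non-tuft library 2, the one with Ffar3, was the lowest of its group for Ffar2 and lay below 3 tuft libraries. The difference was -2.08 (standard error 0.63), with an adjusted p of 0.0490 (limma) just under the threshold. With the replicate number added to the fit as a block, the call was lost (limma adjusted p = 0.0848). This call was lost when any of 8 of the 10 libraries was left out, with differences of -1.63 to -2.27 and adjusted p of 0.0639 to 0.114, and was kept only without non-tuft library 2 or tuft library 1. Means of the 22 listed islet markers were 6.77, 4.08, 4.12, 0.71 and 4.29 in non-tuft libraries 1 to 5 and 0.92 to 2.11 in the tuft libraries. Ffar2 was highest in non-tuft library 4, where the islet mean was lowest, and the part of islet RNA in the Ffar2 values was not tested.

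Sucnr1, the succinate receptor of intestinal tuft cells, was above the floor in non-tuft library 3 only, at 3.54, and at 0 in all 5 tuft libraries (limma adjusted p = 0.517). Gpr35, chosen after its values were seen, reached 2.00 in tuft library 1 and at most 0.54 in any other library. Free fatty acid receptors Ffar1 and Ffar4 were not listed.

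Prostaglandin E receptors included Ptger3, an inhibitory receptor and the called gene that was at the floor throughout one group. Ptger3 (chromosome 3, 157229856 to 157307722, plus strand) was at 3.41, 2.13, 3.55, 3.75 and 5.02 in the non-tuft libraries and at 0 in all 5 tuft libraries. With genes of low variance removed, Ptger3 was listed only through its non-tuft values. The fitted difference passed the fold threshold, but its size against a group listed at 0 rests on the 1 added before the log, so no fold is given. The adjusted p was 0.000404 (limma). The groups did not overlap, and the exact permutation test gave p = 0.00794, the smallest that 5 against 5 libraries allow. The permutation test took the libraries as independent, although cells of both groups were sorted from 5 mice. When single libraries were left out, the adjusted p stayed between 0.000180 and 0.00203.

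Ptger4, a stimulatory receptor, did not follow Ptger3. It was at 2.97, 3.56 and 0.89 in non-tuft libraries 2, 3 and 5 and at 1.53 and 2.36 in tuft libraries 3 and 4, with the other 5 libraries at 0. Detected libraries thus fell in both groups, and the difference was -0.71 (95% interval -2.38 to 0.96, limma adjusted p = 0.617). Ptger1, a receptor that raises calcium, was at 1.78, 2.19, 0, 1.96 and 0.50 in the tuft libraries and at most 0.93 in the non-tuft libraries, with a difference of 0.81 (95% interval -0.25 to 1.87, limma adjusted p = 0.337). Ptger1 is among the 10 receptor genes that overlap another listed gene, and because strand is not stated for the counting, reads from overlapping genes cannot be told apart. Ptger2 was not listed.

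Lysophospholipid receptors, which respond to lysophosphatidic acid or to sphingosine 1-phosphate, formed the largest group of receptors with a known ligand, with 7 genes, none of which was called. Lpar6 was the only one of the 7 above the floor in all 10 libraries. It was at 3.52, 4.90, 3.98, 4.82 and 5.06 in the tuft libraries and at 2.23, 4.29, 4.47, 0.58 and 4.01 in the non-tuft libraries. The non-tuft values spread widely and overlapped the tuft values, and the difference was 1.34 (95% interval -0.19 to 2.87, limma adjusted p = 0.266). Lpar6 lies within Rb1 and shares 16.5% of its exonic bases with that gene, which is on the opposite strand and was called higher in tuft cells, with a difference of 2.16 (limma adjusted p = 0.00972).

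S1pr2, chosen after its values were seen, was well above the floor in all 5 tuft libraries, at 3.40, 2.96, 4.22, 2.53 and 3.31. In non-tuft libraries 4 and 5 it was at 3.63 and 3.10, and in the other 3 at most 0.43. The non-tuft libraries therefore separated into low and high values, and the difference of 1.82 was not called (95% interval 0.25 to 3.39, limma adjusted p = 0.134). Lpar1, Lpar2, Lpar5, S1pr3 and S1pr4 were each at the floor in at least 5 of the 10 libraries.

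Purine receptors had no called gene among 3. Adora1, the inhibitory adenosine receptor, was at 1.40, 2.72, 2.88, 2.24 and 1.73 in the tuft libraries and at 2.36, 4.15, 0.11, 2.00 and 2.29 in the non-tuft libraries. The means, 2.19 ± 0.63 and 2.18 ± 1.44 (SD, n = 5 each), were nearly equal, and the 95% interval of the difference ran from -1.36 to 1.38. P2ry2, a receptor for ATP and UTP, was above the floor in non-tuft libraries 1 and 3 only, at 1.28 and 2.27 (limma adjusted p = 0.368).

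F2rl1, a protease-activated receptor that trypsin cleaves, was at 2.77, 0.17, 2.03, 1.59 and 1.89 in the non-tuft libraries and at 2.50, 0, 0.25, 1.07 and 0.06 in the tuft libraries. Tuft library 1 lay within the upper non-tuft values and non-tuft library 2 at its floor, and the difference of -0.91 was not called (95% interval -2.19 to 0.37, limma adjusted p = 0.376).

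Among chemokine receptors Cxcr6, the receptor for Cxcl16 that is best known on T cells and related lymphocytes, was called higher in tuft cells. Cxcr6 (chromosome 9, 123715595 to 123720872, plus strand) was at 2.73, 3.01, 4.33, 3.69 and 4.02 in the tuft libraries. Non-tuft library 5 was at 3.24, whereas the other 4 of that group were at the floor. All 5 tuft libraries were above the floor, and the single positive non-tuft library lay above 2 of them. The difference was 2.87 (standard error 0.64, limma adjusted p = 0.00997), and with each library left out the adjusted p stayed between 0.000404 and 0.0355. The exact permutation test, which took the libraries as independent, gave p = 0.0238.

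Leukocyte genes were read beside Cxcr6. The T cell genes Cd3d and Cd3g were at 3.40 and 3.72 in non-tuft library 5, at 1.12 and 1.92 in tuft library 5 and at the floor in the other 8 libraries. In tuft libraries 1 to 4 Cxcr6 was above the floor and both T cell genes were listed at 0. The part of leukocyte RNA in the Cxcr6 values was not tested. Ptprc, which encodes the Cd45 protein used to exclude leukocytes in the sort, was the only one of the 16 listed leukocyte genes to be called, at 2.74 to 4.33 in the tuft libraries and 0 to 1.93 in the non-tuft libraries (limma adjusted p = 0.00292). Library means of the leukocyte list were 0.35 to 1.93 for tuft cells and 0.43 to 2.49 for non-tuft epithelial cells. The B cell genes Cd79a and Cd79b were highest in non-tuft library 5, at 5.23 and 6.22, and at least one of them was above the floor in tuft libraries 1, 3, 4 and 5. Cxcr6 lies within the span of Fyco1 on the opposite strand without sharing exonic bases, and Fyco1 was not called (difference 0.50, limma adjusted p = 0.527).

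Receptor genes typical of lymphocytes stood apart in non-tuft library 5. Cxcr5, the B cell follicle homing receptor, was at 4.12 there and at the floor in the other 9 libraries (limma adjusted p = 0.507). S1pr4, Gpr183 and P2ry10, which are also mainly expressed in lymphocytes and were chosen after their values were seen, were at 3.69, 3.50 and 2.95 in this library and at most 0.17 in any other. In tuft library 5, Ccr7 at 2.52 and Gpr18 at 2.04 were likewise above 1 in no other library. Non-tuft library 3 was the library with the most receptor genes above the floor, 35 of 48, followed by non-tuft library 5 with 33 and tuft library 5 with 32. The same 3 libraries had the fewest listed genes at the floor, 1442, 1627 and 1538 of 12160, with 1751 to 3753 in the other 7 libraries. The part of these library differences in single-library receptor values was not tested.

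**Figure D4:**
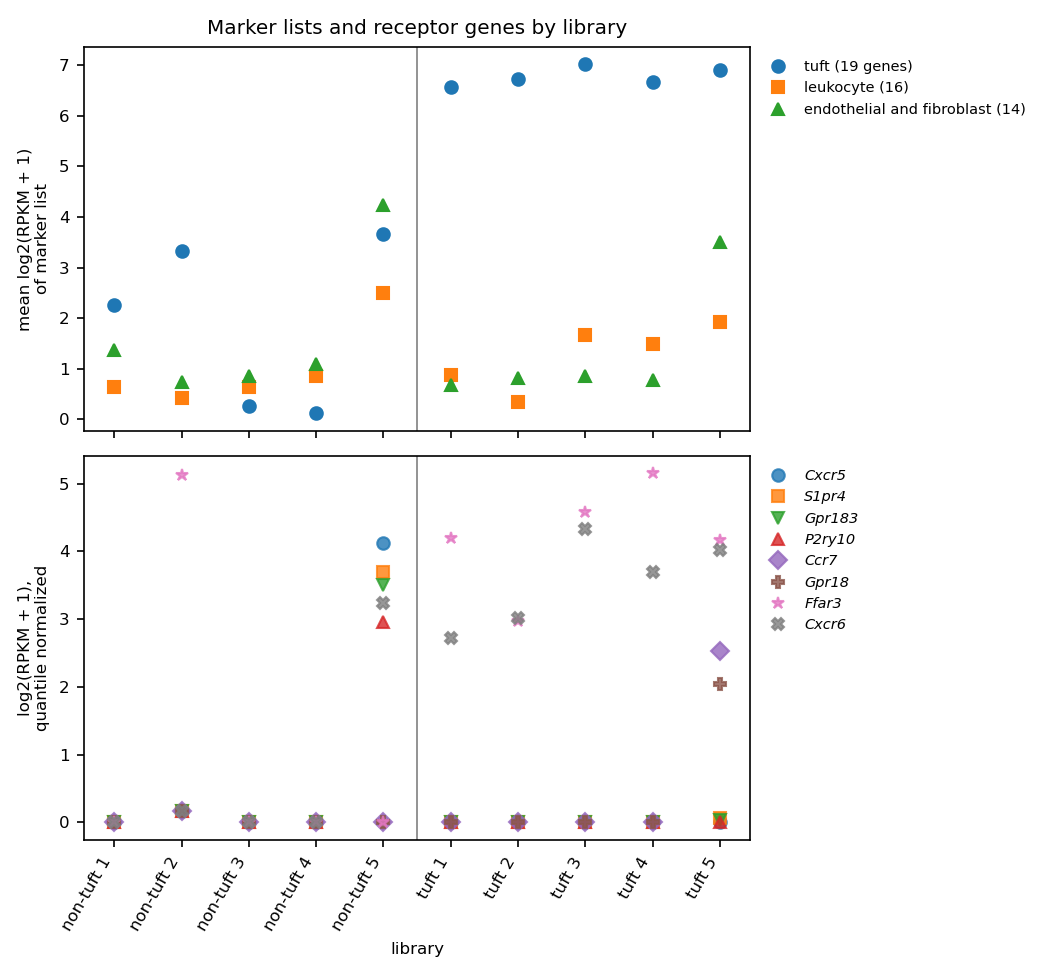
Upper panel, mean log2(RPKM + 1) of the tuft, leukocyte, and endothelial and fibroblast marker lists in each library, and lower panel, level of 8 receptor genes in the same libraries in log2(RPKM + 1). Cxcr5, S1pr4, Gpr183 and P2ry10 are high in non-tuft library 5, where the leukocyte mean is 2.49, while Cxcr6 is between 2.73 and 4.33 in the tuft libraries.

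Class C receptors held the most abundant receptor gene of tuft cells. Gprc5c, an orphan receptor of the retinoic acid-inducible family, was at 7.95, 7.88, 8.05, 7.55 and 7.58 in the tuft libraries and at 6.48, 5.78, 4.45, 5.64 and 5.09 in the non-tuft libraries. Tuft values lay close together and above all non-tuft values, although non-tuft cells also held the gene at a high level. The mean was 7.80 ± 0.22 (SD, n = 5) in tuft cells and 5.49 ± 0.76 (SD, n = 5) in non-tuft epithelial cells, a difference of 2.32 (standard error 0.42, 95% interval 1.40 to 3.23, limma adjusted p = 0.00325) or 4.98-fold.

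By mean level, Gprc5c (chromosome 11, 114712466 to 114733931, plus strand) ranked 237 among the 12160 listed genes in tuft cells and 1162 in non-tuft epithelial cells. Among the 48 receptor genes taken by name, Cckar had the highest level in non-tuft epithelial cells, and Gprc5c came next. Its relative Gprc5a, which is induced by retinoic acid in lung and other epithelia, was at 2.68 in tuft library 4 and at 0 in the other 4 tuft libraries, and at 0.76, 1.39 and 1.68 in non-tuft libraries 3 to 5. Gprc5a thus had no common direction, with a 95% interval of the difference from -1.53 to 1.01. Gprc5b and Gpr158 had group means of at most 0.85.

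A set of 9 orphan and other receptors with Gpr symbols had no called gene. Gpr146 was at 1.00, 2.09, 0.65, 2.64 and 1.43 in the tuft libraries and at 0.81, 0.17, 1.34, 0 and 1.95 in the non-tuft libraries. It was the only one of the 9 above the floor in all tuft libraries, and the groups overlapped (difference 0.71, 95% interval -0.40 to 1.82, limma adjusted p = 0.433). Gpr85, an orphan receptor conserved in vertebrates, had values of 2.94, 4.48 and 1.03 in non-tuft libraries 1, 2 and 5 and of 1.60 in tuft library 1. It was at 0 in the other 6 libraries (limma adjusted p = 0.320).

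The last 8 genes carry a Gpr symbol, but their products are not established as G protein-coupled receptors. Gpr137b, whose product lies in the lysosomal membrane, was called higher in tuft cells. Gpr137b (chromosome 13, 13449890 to 13485891, minus strand) was at 3.07, 3.14, 3.74, 3.68 and 3.80 in the tuft libraries and at 2.56, 0.17, 0.57, 0.92 and 1.38 in the non-tuft libraries. The groups did not overlap, and the difference was 2.37 (standard error 0.47, limma adjusted p = 0.00515) or 5.16-fold.

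Gpr137b-ps, an annotated copy on the same chromosome (12711351 to 12742564, minus strand), was at 3.16, 4.51, 4.38, 4.43 and 4.65 in the tuft libraries and at 3.05, 3.52, 2.54, 1.94 and 1.42 in the non-tuft libraries. It had the same direction as Gpr137b, and the groups overlapped because tuft library 1 lay below non-tuft library 2. The difference was 1.73 (standard error 0.48, limma adjusted p = 0.0340) or 3.32-fold, below the threshold of 4. With the replicate number as a block the limma adjusted p was 0.0666, and with 0.1 added before log2 it was 0.0622. With single libraries left out it lay between 0.0184 and 0.0842. Of all stretches of 50 bases in the exons of Gpr137b, 16.4% occur unchanged in those of Gpr137b-ps, and 16.6% in the reverse comparison. Reads of 50 bases from such stretches could have been assigned to either gene, so the separate values of this pair are uncertain.

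Of these 8 genes, 5 were above the floor in all 10 libraries. Gpr108, a Golgi membrane protein, was the highest of them in both groups, at 4.51, 5.03, 5.84, 4.61 and 5.94 in the tuft libraries and at 4.73, 3.63, 5.05, 3.76 and 5.24 in the non-tuft libraries. Its groups overlapped widely, with a difference of 0.70 (95% interval -0.32 to 1.73, limma adjusted p = 0.398).

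Proteins that carry and end the receptor signal were read from a list of 79 genes, of which 53 were listed in the table. The calls numbered 12 (22.6%), of which 10 were higher in tuft cells and 2 were lower, against 8.31% of all listed genes. The median difference of the 53 genes was 0.18. Of the 10 genes called higher, Gnat3, Gng13, Plcb2 and Rgs13 also belong to the tuft marker list, so their values are no evidence separate from that list. They count in the share of 22.6%, and the list of 79 genes was chosen with earlier results of these data known.

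G protein alpha subunits had 1 called gene among 13. Gnat3, gustducin of the taste cascade, was at 3.11, 4.98, 3.78, 3.15 and 3.67 in the tuft libraries and at 2.46, 0.17, 0, 0 and 2.91 in the others (difference 2.63, limma adjusted p = 0.0189). The groups did not overlap, but non-tuft libraries 1 and 5 came close to the lowest tuft library. Gnas, the stimulatory subunit that raises cyclic AMP, had the highest level of the alpha subunits and nearly equal means of 7.91 ± 0.38 and 8.0 ± 0.37 (SD, n = 5 each) in tuft and non-tuft epithelial cells. Among 9 beta and gamma subunits, Gng12 and Gng13 were called higher. Gng12 was high in both groups and higher in every tuft library, at 8.93 to 11.16 against 6.80 to 8.37 (difference 2.43, limma adjusted p = 0.00722). Gng13, the gamma subunit of the taste cascade, was at 4.76 to 6.21 in the tuft libraries and at 0 to 5.61 in the non-tuft libraries, and non-tuft library 2 made the groups overlap (difference 3.10, limma adjusted p = 0.0318).

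RGS genes, whose products shorten signals of G proteins, had 5 called genes among 13 and both directions. Rgs2 was at 9.30, 8.54, 9.43, 9.98 and 10.64 in the tuft libraries and at 7.49, 7.99, 5.57, 6.66 and 8.22 in the non-tuft libraries. The groups did not overlap, and the difference was 2.40 (limma adjusted p = 0.0145). Rgs13, of the tuft marker list, was at 9.91 to 12.63 in the tuft libraries and at most 7.43 in the other group (limma adjusted p = 0.00292). Rgs22 was at 1.06 to 4.43 in the tuft libraries and at the floor throughout the other group (limma adjusted p = 0.00730). With genes of low variance removed, Rgs22 was listed only through its tuft values. Rgs11 was at 0.84 to 3.79 in the tuft libraries and at 4.91 to 6.13 in the non-tuft libraries, a difference of -3.31 (limma adjusted p = 0.00327). Rgs5, a pericyte gene that also belongs to the endothelial and fibroblast list, was at 4.53, 2.52, 5.21, 5.76 and 2.52 in the non-tuft libraries and above the floor in 1 tuft library only, at 0.64 (limma adjusted p = 0.00115). The endothelial and fibroblast mean was 4.23 in non-tuft library 5 and 0.73 to 1.38 in the other 4, and of its 14 genes 2, Rgs5 and Fn1, were called lower in tuft cells and 2, Tek and Esam, higher. The part of stromal RNA in the Rgs5 values was not tested.

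Among receptor kinases and arrestins, Arrb1, which binds activated receptors and uncouples them from G proteins, was called. Arrb1 was at 5.63, 5.25, 4.63, 5.25 and 4.75 in the tuft libraries and at 2.15, 3.26, 0, 3.30 and 1.11 in the non-tuft libraries. All tuft libraries lay above all non-tuft libraries, and the difference was 3.14 (limma adjusted p = 0.00443). Its relative Arrb2 was not called, with a difference of -0.99 (limma adjusted p = 0.215).

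Effector genes were called for 3 of 12, all higher in tuft cells. Plcb2, the phospholipase C of taste cells, was at 3.41 to 4.22 in the tuft libraries and at 0 to 2.07 in the non-tuft libraries (difference 3.15, limma adjusted p = 0.000953). Itpr2, a receptor through which inositol trisphosphate releases calcium, was at 5.25, 5.84, 5.52, 5.79 and 5.46 in the tuft libraries and at 2.21, 3.08, 2.91, 2.84 and 3.66 in the non-tuft libraries. This gave 2 narrow groups without overlap and a difference of 2.63 (standard error 0.38, limma adjusted p = 0.000659). Its relatives Itpr1 and Itpr3, named after their values were seen, were not called (limma adjusted p = 0.255 and 0.695). Adcy4, an adenylyl cyclase, was at 4.12 to 6.07 in the tuft libraries, with 4.58 in non-tuft library 5 and the floor in the other 4, so that the groups overlapped (difference 4.13, limma adjusted p = 0.00536). Non-tuft library 5 was thus the positive library for Adcy4 as for Cxcr6. Its marker means were 3.66 for tuft cells, 2.49 for leukocytes and 4.23 for endothelial cells and fibroblasts. The part of each in these values was not tested.

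**Figure D5:**
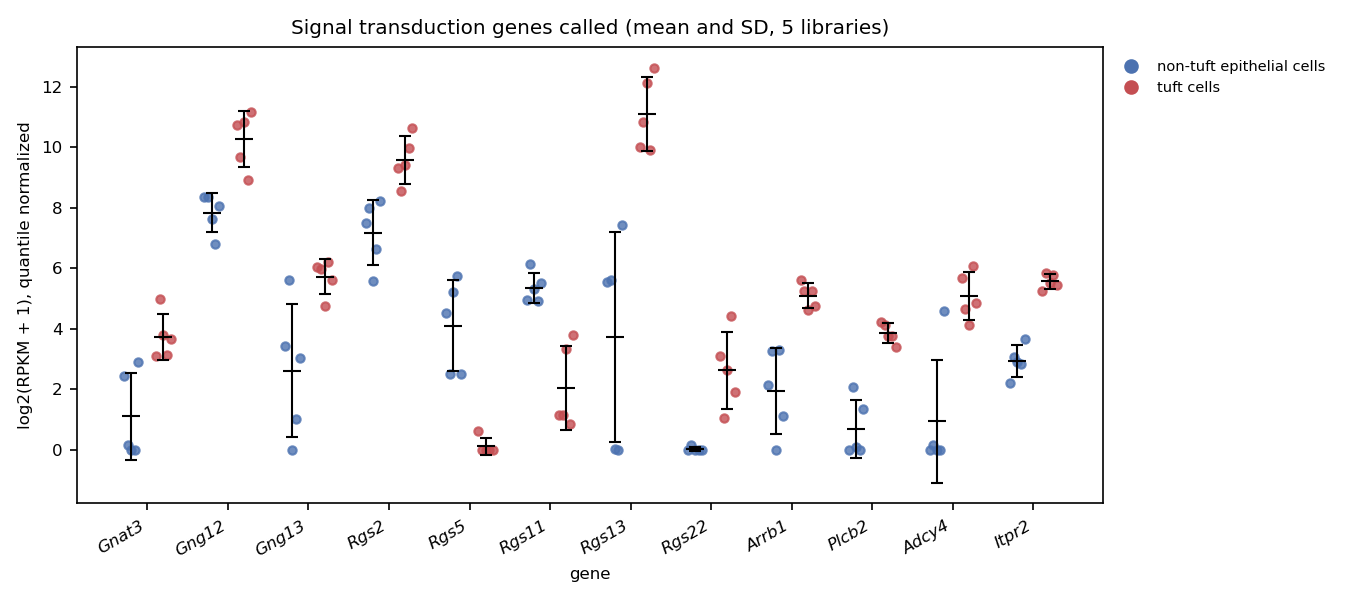
Level in log2(RPKM + 1) of the 12 called genes of G protein signal transduction, 1 point per library, with the mean and SD of 5 libraries as bars, non-tuft epithelial cells in blue and tuft cells in red. Rgs5 and Rgs11 are lower in tuft cells, and the other 10 genes are higher.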

How the data were processed

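The authors mapped 50-base single-end reads to mm9 with HISAT2, quantified RPKM with StringTie and Ballgown, removed genes with an RPKM variance under 1, and deposited quantile-normalized log2(RPKM + 1) values for 12160 genes in 10 libraries. The fold change, p-value and false discovery rate columns of the deposited table hold their own comparison and were not used.

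Differences were fitted with limma 3.58.1 (R 4.3.3; lmFit and eBayes, default settings, no covariates) with Benjamini-Hochberg adjustment over all genes, and the fit was tested on simulated data. Depth is unknown. Single genes also had exact two-sided permutation tests over 252 splits, which took the libraries as independent and not as pairs from shared mice. Groups and replicate numbers came from the sample titles.

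Receptor genes and lists were chosen with earlier results of these data known. Named were called genes, genes with an adjusted p under 0.05 or without overlap, the highest gene of each role per group, and receptors tied to caerulein, pancreatic secretion, lipid mediators or tuft cells, 21 in all, and called transduction genes. Any other gene was named after its values were seen, and 1 receptor gene counted among the 48 is not reported here by name. Alternatives were a replicate block, added constants of 0.1 and 10, a filter at a mean of 2, centring on ribosomal protein genes, other eBayes settings, other thresholds, a floor of 0 and libraries left out. Figures were made with Python 3.11.15 and matplotlib 3.10.9.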

Additional observations from a re-analysis of the deposited data

Results flagged for a closer look

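For the receptor genes reported and the marker lists, the highest or lowest of the 5 libraries of a group was compared with the others by Dixon's criterion, with values at the floor counted as 0. Of 92 groups tested, 31 had a library that stood apart. The criterion is set to pass about 1 in 20 groups of normally distributed values. A group with a single library above the floor passes it whatever that value is, so the count does not measure an excess over chance. Most of the 31 were genes above the floor in a single library of the group, and no cause was tested.

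In non-tuft library 5 these were Cxcr5 (4.12), S1pr4 (3.69), Gpr183 (3.50), Cxcr6 (3.24) and P2ry10 (2.95), together with the leukocyte mean (2.49) and the endothelial and fibroblast mean (4.23). In tuft library 5 they were Ccr7 (2.52), Gpr18 (2.04), Gpr158 (1.71) and the endothelial and fibroblast mean (3.51), and, barely above the floor, Gpr22 (0.15), S1pr4 (0.067), Gpr155 (0.066) and Gpr183 (0.029). Ffar3 (5.13) stood apart in non-tuft library 2.

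In non-tuft library 3 the high genes were Sucnr1 (3.54), Gpr160 (2.31) and Gpr82 (1.83). In non-tuft library 4 they were Gpr182 (3.73), Gpr39 (3.40) and Adra2a (2.25). In tuft library 1 they were Gpr35 (2.00), Gpr85 (1.60) and Lpar1 (0.95), with the islet mean (2.11), while Gpr137b-ps (3.16) was low. In tuft library 2 Gpr107 (2.03) was low. In tuft library 3 Gpr160 (2.73) was high, and in tuft library 4 Gprc5a (2.68) and F2r (1.88).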

How the results depend on the processing

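Cckar and Gprc5c were called under every setting that refitted the data. Ptger3, Gpr137b and Cxcr6 were called in all of these settings except with 10 added before log2, which left 1 receptor gene higher and 1 lower, and Ptger3 was not among the 14 receptor genes kept at a mean of at least 2. With 10 added, 3 transduction genes were higher and 0 lower. Centring on 80 ribosomal protein genes moved the median difference of all genes to 0.82, and of 1514 genes called 1289 were then higher. It raised the receptor genes called higher from 4 to 7, with Gpr137b-ps, S1pr2 and Gpr137 added, and Ffar2 was lost (difference -1.28). The cause of these changes was not tested beyond the construction of the settings. Adora1 changed sign with 10 added (-0.092) and with single libraries left out (-0.51 to 0.50), Gprc5a with centring (0.53) and with 10 added (0.0013), Ptger4 with centring (0.092), and P2ry2 and Sucnr1 with centring (limma adjusted p = 0.950 and 0.961). None of these 5 genes was called under any of these settings.

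With each library left out in turn, 3 to 4 receptor genes were higher, 2 to 3 lower and 5 to 9 had an adjusted p under 0.05 in limma, against 4, 3 and 8, and 7 to 12 transduction genes were higher and 2 to 3 lower, against 10 and 2. Without both libraries numbered 5, a choice made after seeing the data, 5 receptor genes had such a p. Without non-tuft libraries 1, 2 and 5, also chosen afterwards, 1 transduction gene was lower. With 0.1 added Sctr was called lower (limma adjusted p = 0.0376) and Ffar2 was lost (0.142). Sctr also had an adjusted p of 0.0334 (limma) without non-tuft library 5, and S1pr2 was called without non-tuft library 4.

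Cells of both groups came from 5 mice, but no label says that a shared replicate number marks the same mouse. Correlations of the deviations of same-numbered libraries were 0.12, 0.08, 0.11, 0.06 and 0.24, and 4 of 5 non-tuft libraries correlated best with their own number. With the replicate number as a block, 3 receptor genes were higher, 2 lower and 5 had an adjusted p under 0.05 in limma. Ffar3 (0.0816), Ffar2 (0.0848) and Gpr137b-ps (0.0666) no longer had such a p. In the same fit, 11 transduction genes were higher and 3 lower.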

Other observations

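Receptors of the same superfamily whose names fall outside the rule were read from a list of 166 genes, of which 27 were listed in the table, 1 called higher and 1 lower, or 7.41% against 8.31% of all listed genes. Lgr5, a receptor for R-spondins that marks stem cells in the intestine, was at 6.02, 5.82, 5.06, 5.16 and 5.68 in the tuft libraries and at 1.94, 4.26, 4.55, 2.77 and 0.22 in the non-tuft libraries. The groups did not overlap, and the difference was 2.80 (standard error 0.71, limma adjusted p = 0.0212). Its relative Lgr4, named after its values were seen, was high in both groups, at 6.09 ± 0.70 in tuft cells and 5.82 ± 0.86 in non-tuft epithelial cells (SD, n = 5 each).

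Smo, the transducer of hedgehog signals, was at 2.26, 3.30, 4.0, 2.92 and 3.14 in the non-tuft libraries. In the tuft libraries it was at 0.13 in library 3 and at 0 in the other 4, so that the groups did not overlap (difference -3.10, standard error 0.39, limma adjusted p = 0.000240).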
